A study of Mus musculus with 12 samples.

Results

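The genes described here are those for the mouse CXC chemokines that act through the receptor CXCR2 (Cxcl1, Cxcl2, Cxcl3 and Cxcl5) and for the receptor itself (Cxcr2). They were chosen by symbol, and make 5 of the 55415 entries of the gene table. Their expression was measured by RNA sequencing of bulk tumour tissue. The tumours were of CT26, a cell line derived from a colon carcinoma of a BALB/c mouse, and had grown in mice. There were 3 libraries in each of 4 groups: mice given Complex 1 and radiation (the combination), mice given radiation, mice given Complex 1, and untreated control mice. The series title describes an X-ray activated platinum complex, DNA damage and an abscopal effect, which is a response of tumours outside the irradiated field. The labels name no dose, time, age or host strain, and leave unsaid whether a sampled tumour was inside the field or whether the libraries of a group came from separate animals. The p-values below therefore measure the spread between these samples, which may be technical. Of 7 epithelial markers, Krt18 and Krt20 passed the filter on low values, and Epcam, Krt8, Krt19, Cdx2 and Cdh1 did not. Epcam averaged 0.0700, 0.05, 0.0467 and 0.0833 FPKM in the combination, radiation, Complex 1 and control tumours. Summed over the 7 markers, levels were 88.6 to 108 FPKM in the combination and 85.9 to 140 FPKM in radiation libraries. They were 73.1 to 153 FPKM in Complex 1 and 123 to 154 FPKM in control libraries.

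CXCR2 is a G protein-coupled receptor carried mainly by neutrophils in mice. Its ligands carry the amino acids glutamate, leucine and arginine (ELR) before the CXC motif and draw neutrophils out of blood into inflamed tissue and tumours. CXCL1, CXCL2 and CXCL3 are closely related proteins made quickly by macrophages, fibroblasts, endothelial cells and tumour cells after interleukin 1, tumour necrosis factor or bacterial products. Mouse CXCL5, also called LIX, is made largely by epithelial and stromal cells. NF-kB sites close to the transcription start drive the ligand genes, and AU-rich elements make their messenger RNAs short-lived.

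The 4 ligand genes lie on the plus strand of chromosome 5 within a CXC chemokine cluster. In mm39, Cxcl5 (ENSMUSG00000029371) is at chr5:90907219-90909483, Cxcl3 (ENSMUSG00000029379) at chr5:90933962-90937459, Cxcl1 (ENSMUSG00000029380) at chr5:91039100-91040974 and Cxcl2 (ENSMUSG00000058427) at chr5:91051730-91053797. Cxcr2 (ENSMUSG00000026180) is on the plus strand at chr1:74193148-74200405. No other gene of the table overlaps a member. The share of 31-base transcript sequences also found in an annotated transcript of another gene symbol was 0% for Cxcl1, 7.59% for Cxcl2 and 5.46% for Cxcl3. It was 0.871% for Cxcl5 and 12.1% for Cxcr2. The genome outside annotated transcripts was not searched.

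Promoters of Cxcl1, Cxcl2, Cxcl3 and Cxcr2 (4 of the 5 members) were matched by symbol in RefSeq's table for build GRCm38.p6, which holds 250 bases before and 50 bases after each gene's start. The 100 bases just before the start are shown because all of these genes rose in the combination tumours against control. Capitals mark every match, on either strand, to the NF-kB motif (GGG, any 2 bases, TTTCC), and to TATAAA for the TATA box. The windows are upstream of the annotated transcript, on the plus strand: chr5:90891145-90891244 for Cxcl1, chr5:90903799-90903898 for Cxcl2, chr5:90786001-90786100 for Cxcl3 and chr1:74153894-74153993 for Cxcr2.
Cxcl1: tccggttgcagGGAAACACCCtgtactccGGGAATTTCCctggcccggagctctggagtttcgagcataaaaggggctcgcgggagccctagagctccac
Cxcl2: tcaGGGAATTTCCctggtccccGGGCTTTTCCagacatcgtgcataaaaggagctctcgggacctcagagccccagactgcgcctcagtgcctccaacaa
Cxcl3: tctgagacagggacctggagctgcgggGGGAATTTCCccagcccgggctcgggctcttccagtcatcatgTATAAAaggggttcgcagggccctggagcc
Cxcr2: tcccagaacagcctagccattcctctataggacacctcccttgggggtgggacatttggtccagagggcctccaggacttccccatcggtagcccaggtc

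Each of the 3 ligand promoters held GGGAATTTCC, which begins 71 bases before the start in Cxcl1, 97 in Cxcl2 and 73 in Cxcl3. A further match to the NF-kB motif began 89 bases before the start of Cxcl1, on the minus strand, and 78 bases before the start of Cxcl2. The motif was found in 535 of the 32851 promoters of the table (1.63%). TATAAA stood 30 bases before the start of Cxcl3, and was present in 13.6% of promoters. The AP-1 motif TGANTCA (7.81% of promoters) and the C/EBP motif TTGCNNAA (10.8%) were not found in these 4 promoters, and the Cxcr2 promoter had no match to any of the 4 motifs. No matches overlapped one another. A match is a description of the letters in these 300 bases, and binding was not measured.

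Levels are given as FPKM, the counts of a gene per kilobase of its exonic length and per mega count (M) of the library, as deposited. Libraries held 15.6 to 19.1 M counts. A gene was tested if it had at least 1 FPKM in at least 3 of the 12 libraries, which left 13668 genes and all 5 members. Cxcl3 and Cxcr2 reached 1 FPKM in the 6 combination and Complex 1 libraries and in 0 radiation or control libraries, so these genes entered the test through the groups in which they were high. Each change is a log2 fold change ± SE. It was tested by quasi-likelihood in edgeR, with p-values adjusted by Benjamini and Hochberg's method over all tested genes, and a gene passed at an adjusted p under 0.05. Because the tissue was bulk, more cells of a type and more RNA per cell cannot be told apart. Control replicate 2 had 0.02 FPKM of Xist, the RNA of the inactive X chromosome, with 28 counts over 4 Y-linked genes. In each of the remaining 11 libraries Xist stood at 9.20 to 14.2 FPKM with at most 1 such count. This control differs from them in sex-linked RNA, and the calls of the members and gene lists against the control group were also made without it.

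Cxcl1, the most abundant ligand, was high in the combination tumours. It stood at 246, 81.0 and 104 FPKM in the combination, 12.5, 6.42 and 24.4 FPKM in radiation, 26.3, 25.8 and 13.3 FPKM in Complex 1, and 12.6, 6.11 and 6.29 FPKM in control tumours. Every combination library was above every other library, while radiation overlapped both Complex 1 and control. Complex 1 libraries were all above the control libraries, with the nearest values 13.3 FPKM in Complex 1 and 12.6 FPKM in control.

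Cxcl5 followed the same order. It had 41.9, 13.9 and 14.5 FPKM in the combination, 1.2, 1.44 and 4.09 FPKM in radiation, 2.46, 5.47 and 4 FPKM in Complex 1, and 1.08, 1.01 and 0.97 FPKM in control tumours. The control libraries were the lowest and lay close together, and the combination libraries did not overlap any other group. As for Cxcl1, replicate 1 was the highest of the combination libraries and replicate 3 the highest of the radiation libraries.

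Cxcl2, also called MIP-2, and its near relative Cxcl3 were high in both groups that had received the compound. Cxcl2 stood at 33.1, 22.1 and 17.1 FPKM in the combination, 1.4, 0.71 and 2.67 FPKM in radiation, 6.85, 19.0 and 18.6 FPKM in Complex 1, and 1.42, 1.21 and 0.79 FPKM in control tumours. Cxcl3 had 9.22, 3.47 and 3.05 FPKM in the combination, 0.27, 0.17 and 0.74 FPKM in radiation, 1.51, 4.20 and 3.04 FPKM in Complex 1, and 0.27, 0.28 and 0.29 FPKM in control tumours. For both genes the combination overlapped Complex 1, radiation overlapped control, and neither of the first pair of groups overlapped either of the second. Complex 1 replicate 1 was the lowest of the 6 libraries with the compound for Cxcl2 and Cxcl3.

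The receptor Cxcr2 had the lowest mean of the members in every group. Its levels were 4.78, 2.9 and 2 FPKM in the combination, 0.40, 0.31 and 0.26 FPKM in radiation, 1.01, 1.03 and 1.34 FPKM in Complex 1, and 0.32, 0.29 and 0.09 FPKM in control tumours. These rest on 115 to 231 counts in combination, 15 to 22 in radiation, 49 to 67 in Complex 1 and 5 to 18 in control libraries. The combination was above Complex 1, Complex 1 was above radiation and control, and radiation overlapped control.

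**Figure D1:**
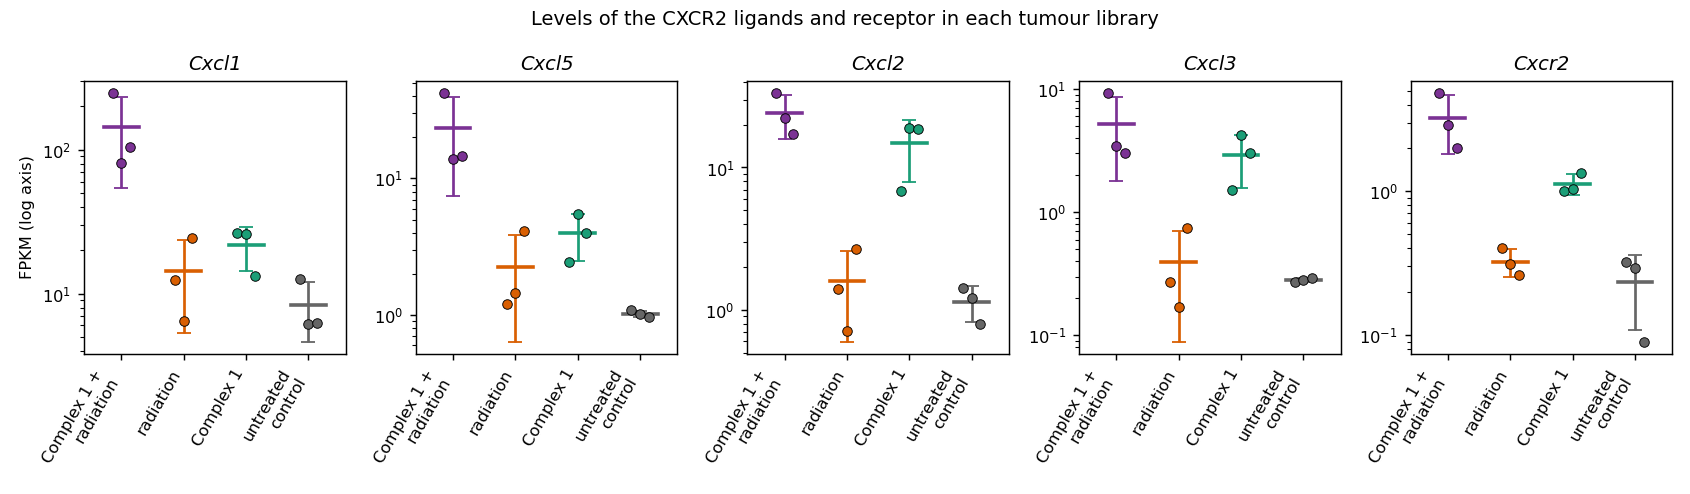
FPKM of each member (log axis) in every library by group, as points, with the mean (bar) and SD (whiskers) of 3 libraries. All combination points lie above all radiation and control points for each member, and for Cxcl2 and Cxcl3 they overlap the Complex 1 points.

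The combination against untreated control addresses the joint effect of both treatments. All 5 members rose, where 11.9% of tested genes rose and 10% fell (21.9% changed in either direction). Cxcl1 averaged 144 ± 89.4 FPKM in the combination and 8.33 ± 3.70 FPKM in control tumours (SD, n = 3 each), a log2 change of 4.06 ± 0.53 (edgeR quasi-likelihood, adjusted p = 0.00029). Cxcl5 had the largest fold of the members, 22.1-fold (log2 4.46 ± 0.55, adjusted p = 0.00020), with 23.4 ± 16.0 FPKM in the combination and 1.02 ± 0.0557 FPKM in control tumours. Cxcl2 rose 20.3-fold (log2 4.34 ± 0.47, adjusted p = 0.00011) and Cxcl3 18.0-fold (log2 4.17 ± 0.58, adjusted p = 0.00040). Cxcr2 averaged 3.23 ± 1.42 FPKM in the combination and 0.233 ± 0.125 FPKM in control tumours, with log2 3.70 ± 0.39 and an adjusted p of 9.8e-05. The members' median log2 change was 4.17, beside -0.01 over all tested genes, and the groups did not overlap for any of the 5, where 20% of tested genes were higher without overlap. All 5 passed whichever library was left out, control replicate 2 included.

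The combination against radiation addresses what the compound added in tumours of mice given radiation. All 5 members rose, where 0.615% of tested genes rose (0.651% changed in either direction), and the groups did not overlap for any of them (8.6% of tested genes were higher without overlap). By p-value, Cxcr2 ranked 2 and Cxcl2 ranked 4 among all tested genes. Cxcr2 and Cxcl3 had entered that set through the combination and Complex 1 libraries, so their place in it is not free of the filter. Cxcl2 rose by 3.89 ± 0.45 on the log2 scale and Cxcr2 by 3.28 ± 0.38 (edgeR, adjusted p = 0.0034 for each). Cxcl3 rose by 3.72 ± 0.55 and Cxcl5 by 3.36 ± 0.50 (adjusted p = 0.0082 for each), and Cxcl1 by 3.30 ± 0.51 (adjusted p = 0.0098). Without radiation replicate 1, Cxcl2 and Cxcr2 still passed, while the adjusted p was 0.077 for Cxcl1, 0.065 for Cxcl3 and 0.055 for Cxcl5.

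Complex 1 against untreated control shows the compound without radiation. Cxcl2, Cxcl3 and Cxcr2 rose, where 0.717% of tested genes rose (0.812% changed in either direction). Cxcl2 rose 12.6-fold, with 14.8 ± 6.90 FPKM in Complex 1 and 1.14 ± 0.321 FPKM in control tumours (SD, n = 3 each). Cxcl3 averaged 2.92 ± 1.35 FPKM in Complex 1 and 0.280 ± 0.01 FPKM in control tumours, a 10.1-fold rise (edgeR, adjusted p = 0.020). Cxcr2 rose 4.63-fold (log2 2.21 ± 0.41, adjusted p = 0.027), with 1.13 ± 0.185 FPKM in Complex 1 and 0.233 ± 0.125 FPKM in control tumours. Cxcl1 and Cxcl5 did not pass, with log2 changes of 1.36 ± 0.51 (adjusted p = 0.29) and 1.92 ± 0.57 (adjusted p = 0.16). Their 95% confidence intervals were 0.25 to 2.47 for Cxcl1 and 0.68 to 3.16 for Cxcl5, and for all 5 members the groups did not overlap (9.39% of tested genes were higher without overlap).

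These 3 calls, with log2 changes of 3.65 for Cxcl2, 3.33 for Cxcl3 and 2.21 for Cxcr2, did not hold when some single libraries were left out. Without control replicate 2, none of them held: the adjusted p (edgeR) was 0.051 for Cxcl2, 0.12 for Cxcl3 and 0.11 for Cxcr2, beside log2 changes of 3.70, 3.35 and 2.40. Cxcl3 also failed without control replicate 1 (adjusted p = 0.076), control replicate 3 (0.069) or Complex 1 replicate 2 (0.079). Cxcr2 failed without control replicate 1 (adjusted p = 0.056), control replicate 3 (0.074), Complex 1 replicate 2 (0.075) or Complex 1 replicate 3 (0.086). With the fit limited to these groups, Cxcl5 passed (adjusted p = 0.041) and Cxcr2 did not (0.060).

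Radiation against untreated control gave no call among the members, where 7.39% of tested genes rose and 5.85% fell (13.2% in all). The log2 changes were 0.77 ± 0.52 for Cxcl1, 1.11 ± 0.60 for Cxcl5, 0.45 ± 0.55 for Cxcl2, 0.45 ± 0.70 for Cxcl3 and 0.42 ± 0.47 for Cxcr2. Adjusted p-values ran from 0.25 for Cxcl5 to 0.72 for Cxcl3 (edgeR). Cxcl5 was the only member without overlap between the groups, where 15.5% of tested genes were higher without overlap. The 95% confidence intervals still allowed log2 changes of up to 1.88 for Cxcl1, 2.40 for Cxcl5 and 1.64 for Cxcl2. Without radiation replicate 3, in which all 4 ligands were highest, the change was -0.15 for Cxcl2 and -0.39 for Cxcl3, and neither passed. Without control replicate 2 no member passed either, with adjusted p-values of 0.38 for Cxcl5 to 0.78 for Cxcl3.

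**Figure D2:**
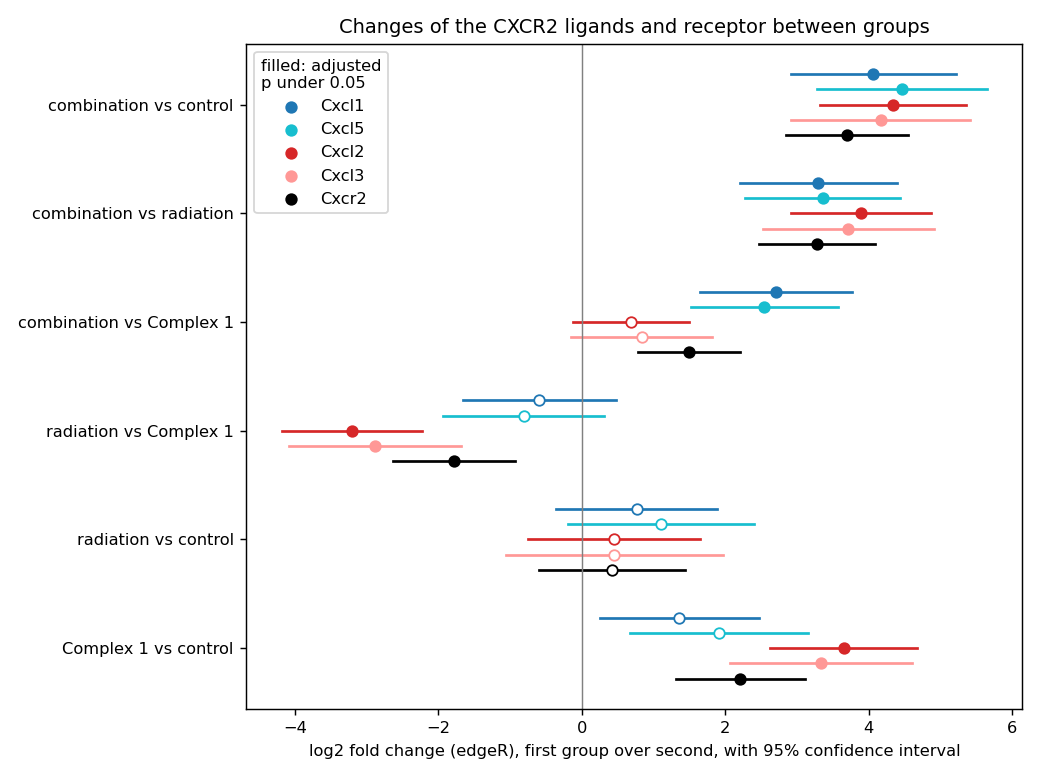
Log2 fold changes of the 5 members (edgeR) in 6 comparisons with 95% confidence intervals; filled points passed at an adjusted p under 0.05. All members are filled in the combination against control and against radiation, and none in radiation against control.

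Radiation added to Complex 1 raised Cxcl1, Cxcl5 and Cxcr2. Those 3 members rose in the combination against Complex 1, where 4.73% of tested genes rose (9.98% changed in either direction). Cxcl1 averaged 144 ± 89.4 FPKM in the combination and 21.8 ± 7.36 FPKM in Complex 1 tumours, a 6.52-fold rise (log2 2.70 ± 0.49, edgeR adjusted p = 0.0055). Cxcl5 rose 5.84-fold (log2 2.55 ± 0.47, adjusted p = 0.0062) and Cxcr2 2.81-fold (log2 1.49 ± 0.33, adjusted p = 0.013). Cxcl2 and Cxcl3 did not pass, with log2 changes of 0.69 ± 0.37 (95% confidence interval -0.12 to 1.49) and 0.83 ± 0.45 (-0.15 to 1.81). The groups did not overlap for the 3 genes that passed (14.4% of tested genes were higher without overlap). The call of Cxcr2 was lost without Complex 1 replicate 1 (adjusted p = 0.059), Complex 1 replicate 2 (0.061) or combination replicate 1 (0.068).

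Set directly against each other, the single treatments differed in 3 members. Cxcl2, Cxcl3 and Cxcr2 were lower in radiation than in Complex 1 tumours, where 5.49% of tested genes were lower and 3.75% higher (9.25% differed in either direction). Cxcl2 averaged 1.59 ± 0.994 FPKM in radiation and 14.8 ± 6.90 FPKM in Complex 1 tumours (log2 -3.21 ± 0.45, edgeR adjusted p = 0.0021). The log2 difference was -2.88 ± 0.56 for Cxcl3 (adjusted p = 0.0091) and -1.79 ± 0.39 for Cxcr2 (adjusted p = 0.015), and was -1.66 for Cxcr2 without radiation replicate 3 (adjusted p = 0.053). The 3 genes that passed did not overlap between the groups (15.8% of tested genes were lower without overlap). Cxcl1 and Cxcl5 overlapped and did not pass, at -0.59 ± 0.49 and -0.81 ± 0.52.

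The interaction asked whether the combination differed from the sum of both single changes on the log2 scale. No member passed, and 0% of tested genes did: edgeR called 0 genes (601 at an unadjusted p under 0.05) and DESeq2 called 6 (518 unadjusted). Estimates were 1.94 ± 0.70 for Cxcl1 (95% confidence interval 0.42 to 3.46), 1.44 ± 0.77 for Cxcl5 (-0.22 to 3.11) and 1.07 ± 0.58 for Cxcr2 (-0.19 to 2.33). For Cxcl2 the estimate was 0.24 ± 0.67 and for Cxcl3 0.38 ± 0.85. The adjusted p was at least 0.997 for each member (edgeR). The comparisons share libraries, the 3 control libraries and those of each treated group among them, and are not independent of one another.

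The makeup of the ligand pool was compared between groups. Summed over the 4 ligands, levels were 120 to 330 FPKM in the combination, 8.74 to 31.9 FPKM in radiation, 37.1 to 54.5 FPKM in Complex 1 and 8.34 to 15.4 FPKM in control libraries. Cxcl1 made up 67.3% to 75.0% of that sum in the combination, 73.5% to 81.4% in radiation, 34.2% to 70.8% in Complex 1 and 71.0% to 82.0% in control libraries. Cxcl2 made up 10% to 18.3% in the combination, 8.12% to 9.10% in radiation, 18.5% to 47.7% in Complex 1 and 9.24% to 14.1% in control libraries. With this length, the share of Cxcl2 in each Complex 1 library was above that of every other library, narrowly so for combination replicate 2, and Complex 1 replicate 3 had more Cxcl2 than Cxcl1. Neither held with the length of the coding transcript. The ratio of Cxcl1 to Cxcl2 was 0.716 to 3.84 in Complex 1 and 5.05 to 8.87 in control libraries, a difference of -2.19 between mean log2 ratios. The groups did not overlap, and a two-sided exact permutation test gave p = 0.10, the smallest that 3 against 3 libraries allow (0.15 after adjustment over 6 such comparisons). The mean log2 ratio was 1.83 higher in the combination than in Complex 1, with 3.67 to 7.43 as the ratios in the combination (exact permutation p = 0.20, adjusted 0.24).

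**Figure D3:**
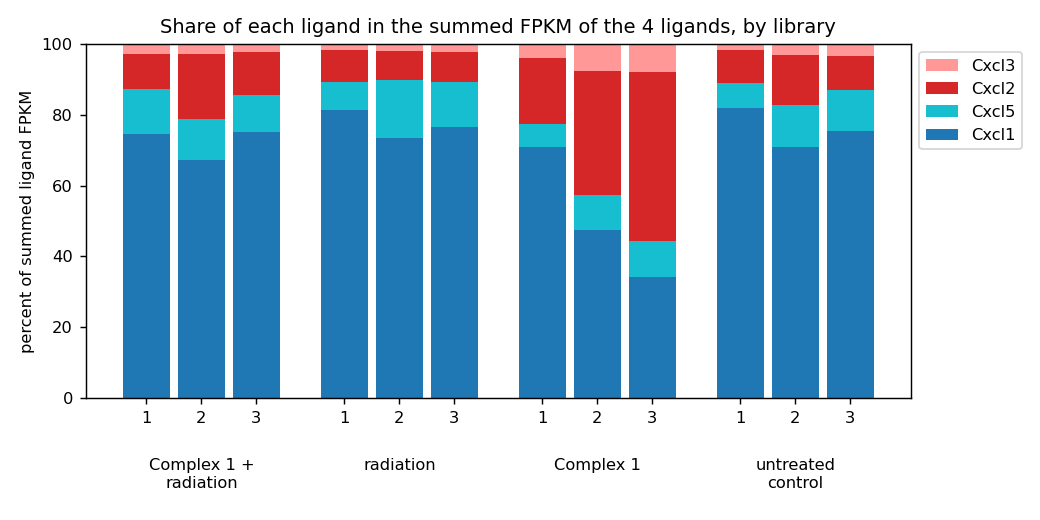
Share (percent) of each ligand in the summed FPKM of the 4 ligands, as a stacked bar for each of the 12 libraries. With the deposited length, Cxcl1 is the main component except in Complex 1 replicate 3, where Cxcl2 makes up 47.7% (33.3% with the coding length, against 42.2% for Cxcl1).

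These shares depend on the length used for FPKM. The exonic length in the table equals the whole gene span for Cxcl1 (1875 bases), Cxcl2 (2068) and Cxcl3 (3498), introns included, whereas their longest coding transcripts in GENCODE M21 have 953, 1859 and 1016 bases. For Cxcl5 the exonic length is 1863 bases and the coding transcript 1575. Per kilobase of coding transcript, the combination means were 283 ± 176 for Cxcl1, 27.7 ± 18.9 for Cxcl5, 26.8 ± 9.13 for Cxcl2 and 18.1 ± 11.9 for Cxcl3 (SD, n = 3). Cxcl1 was thus the most abundant ligand with either length, and Cxcl2, Cxcl5 and Cxcl3 did not differ beyond their SDs with the coding length. With the coding length, Cxcl1 made up 75.1% to 81.5% of the ligand sum in the combination, 80.4% to 86.3% in radiation, 42.2% to 76.7% in Complex 1 and 77.3% to 86.8% in control libraries. Cxcl2 made up 6.12% to 11.6% in the combination, 5.06% to 5.46% in radiation, 11.3% to 33.3% in Complex 1 and 5.55% to 8.69% in control libraries. Cxcl1 was then above Cxcl2 in every library, and for the share of Cxcl2 the combination overlapped Complex 1, at 11.6% in combination replicate 2 and 11.3% in Complex 1 replicate 1. A change of length moves the ratio of Cxcl1 to Cxcl2 by the same factor in every library, so the tests of the ratio do not depend on it. Comparisons of 1 gene between groups do not use its length.

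Across the 12 libraries, the members fell into pairs by the size of the difference between their centred log2 CPM values. The root mean square (RMS) difference was 0.35 between Cxcl2 and Cxcl3, and 0.51 between Cxcl1 and Cxcl5. All other pairs were at 0.75 to 1.12, the widest being Cxcl1 with Cxcl2. This is a description over 12 libraries that share 4 group means, and carries no test.

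The same measure was used to find, for each member, the 5 tested genes most like it. For Cxcl1 these were Lcn2, Rab44, Retnlg, Il1b and Wfdc21 (RMS 0.57 to 0.79), and for Cxcl5 they were Saa3, Wfdc21, Csf3, Rab44 and Il1a (0.53 to 0.75). For Cxcl2 they were S100a8, S100a9, Cstdc4, Stfa2l1 and Il1b (0.52 to 0.74), and for Cxcl3 S100a8, Cstdc4, Csf3, S100a9 and Il1f9 (0.52 to 0.68). For Cxcr2 they were Il1b, Hp, Steap4, Wfdc21 and Stfa2l1 (0.51 to 0.62). Chosen by Pearson correlation instead, 2, 1, 4, 2 and 3 of the 5 genes were shared for Cxcl1, Cxcl5, Cxcl2, Cxcl3 and Cxcr2. Saa3, an acute phase gene, rose by 4.39 ± 0.63 in the combination against control and by 2.05 ± 0.53 against Complex 1 (edgeR, adjusted p = 0.00048 and 0.027). Cstdc4, a stefin gene, rose by 4.09 ± 0.56 in the combination against control (adjusted p = 0.00038), and its change against Complex 1 was 0.81 ± 0.41 (adjusted p = 0.23). Both genes were chosen for their likeness to a member over these same 12 libraries. Their changes therefore follow from that choice, and their p-values describe these genes without being separate support.

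Most tested neutrophil markers rose with the members in the combination. Of 24 listed markers 17 were tested. As for Cxcl3 and Cxcr2, a gene low in control could enter the test through the groups in which it was high. The counts of this list and of the lists below are therefore not free of the filter. Against control, 16 rose in the combination, 2 in radiation (Csf3r and Fpr1) and 8 in Complex 1. In the combination 12 rose against radiation and 3 against Complex 1, and 8 were lower in radiation than in Complex 1. S100a8 and S100a9, the subunits of calprotectin, rose by 4.83 ± 0.51 and 4.82 ± 0.51 in the combination against control (edgeR, adjusted p = 9.6e-05 and 9.8e-05). Csf3r, the receptor of the neutrophil growth factor G-CSF, averaged 15.2 ± 2.67 FPKM in the combination, 6.48 ± 1.44 FPKM in radiation, 7.43 ± 0.800 FPKM in Complex 1 and 3.09 ± 0.585 FPKM in control tumours. It was the marker with the smallest p in the combination against control (log2 2.25 ± 0.19, adjusted p = 2.8e-05).

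Summed over the 24 markers, levels were 368 to 578 FPKM in the combination, 34.2 to 82.7 FPKM in radiation, 176 to 274 FPKM in Complex 1 and 40.2 to 57.1 FPKM in control libraries. In the combination S100a9, S100a8 and Lcn2 carried most of the sum. Ly6g, the marker that defines mouse neutrophils most narrowly, had 0.27, 0.06 and 0.17 FPKM in the combination, 0.06, 0.27 and 0.06 FPKM in Complex 1, and was listed at 0 in every radiation and control library. The granule genes Elane, Mpo, Camp, Ngp and Ltf were at or near 0 in all groups, with no library above 0.36 FPKM. Several listed markers, Fpr1, Fpr2, Clec4d and Clec4e among them, are also expressed by monocytes and macrophages. The part of neutrophil number in the members' levels was not tested. The median log2 change of the tested markers was 2.48 in the combination, 0.52 in radiation and 1.75 in Complex 1 against control, beside medians within 0.01 of 0 over all tested genes.

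Several of these counts changed when 1 library was left out. In Complex 1 against control, 1 marker rose without control replicate 2 and 4 without Complex 1 replicate 2. In the combination against radiation, 6 rose without radiation replicate 1, 7 without radiation replicate 2 and 7 without combination replicate 1. Against Complex 1, 1 rose in the combination without combination replicate 1, 5 without Complex 1 replicate 3 and 6 without radiation replicate 2. In radiation against Complex 1, 4 were lower without Complex 1 replicate 2 or without radiation replicate 1. In radiation against control, 1 rose without control replicate 2 or without radiation replicate 3. In the combination against control, 15 or 16 rose whichever library was left out. Counts also moved under other fits: DESeq2 called 13 markers higher in Complex 1 against control. With only the groups compared, 1 rose in radiation against control and 5 in the combination against Complex 1. With no filter on low values, 16 rose in Complex 1 against control, and 7 rose and 1 fell in radiation against control. The combination against Complex 1 then had 12 higher and 2 lower, and radiation against Complex 1 had 15 lower and 1 higher. That unfiltered fit had an infinite prior df, so it took no account of differences in spread between genes.

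**Figure D4:**
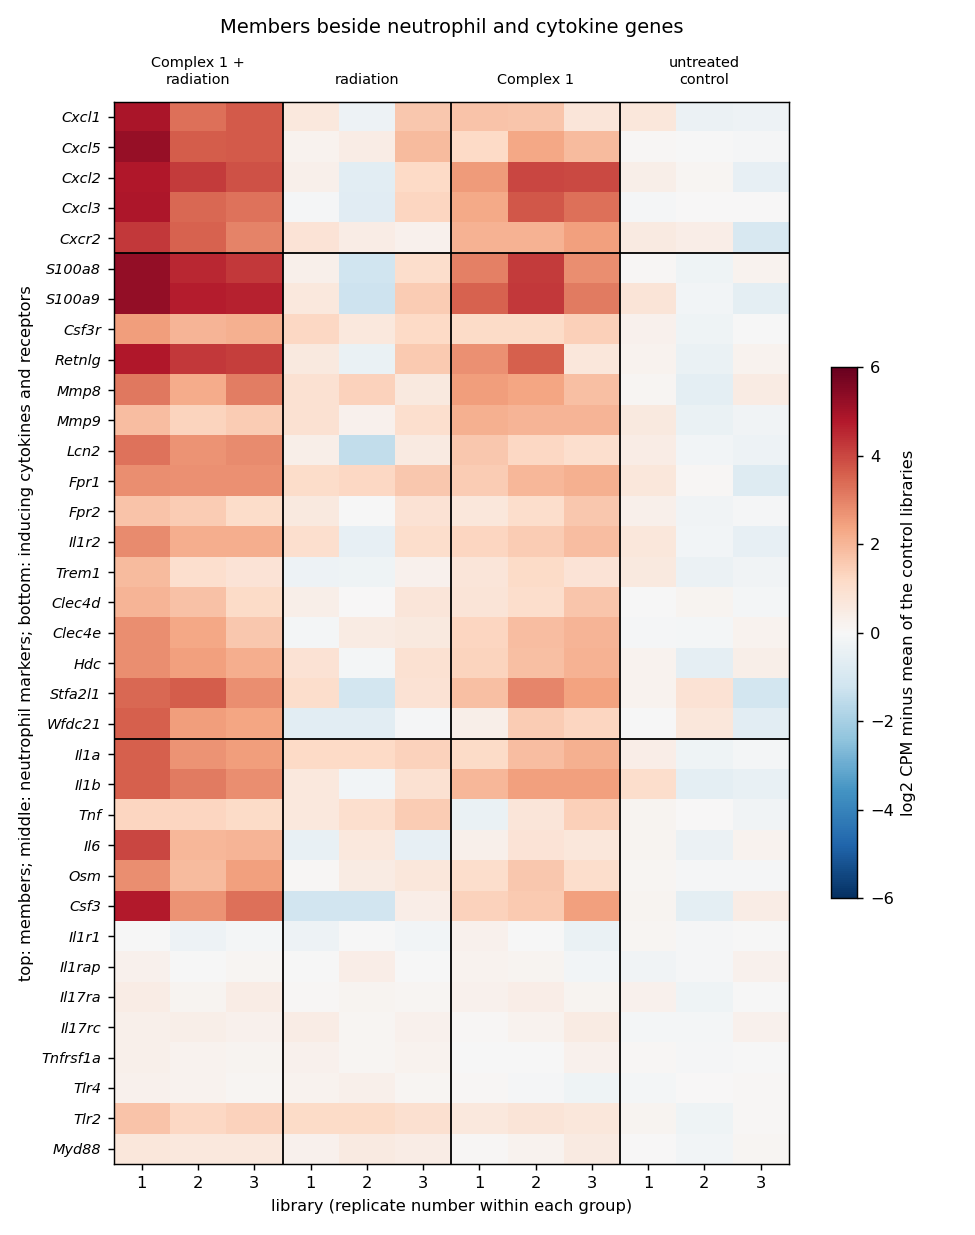
Log2 CPM of the members, 16 of the 17 tested neutrophil markers and the tested inducing cytokines and receptors in each of the 12 libraries, minus the mean of the control libraries (colour scale, log2 units). The members, S100a8, S100a9, Retnlg and Csf3 are among the darkest in the combination columns, and Il1r1, Il1rap and Tnfrsf1a stay near 0 throughout.

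Some cytokines known to induce CXCR2 ligands rose in the combination. Of 17 listed cytokines, receptors and adaptors 14 were tested, and against control 9 rose in the combination, 3 in radiation and 4 in Complex 1. Interleukin 1 beta (Il1b) averaged 57.0 ± 15.7 FPKM in the combination, 8.80 ± 3.17 FPKM in radiation, 30.7 ± 5.55 FPKM in Complex 1 and 6.87 ± 4.74 FPKM in control tumours. In the combination against control, Tlr2, a receptor for bacterial lipoproteins, rose by 1.45 ± 0.13 (adjusted p = 5.9e-05), the cytokine gene Osm by 2.48 ± 0.25 (8.8e-05) and Il1a by 3.11 ± 0.35 (0.00013; edgeR). In the combination 5 rose against radiation (Osm, Il1b, Csf3, Il1a and Il6) and 5 against Complex 1 (Tlr2, Osm, Il6, Il1a and Csf3). In radiation, Tlr2 rose by 1.09 ± 0.13 against control (adjusted p = 0.00072), and Il1b was lower than in Complex 1 by a log2 difference of -1.80 ± 0.37 (adjusted p = 0.012). The receptor genes Il1r1, Il1rap, Il17rc, Tnfrsf1a and Tlr4 did not pass in any of the 6 pairwise comparisons. Il17a and Il17f, which encode interleukin 17 and a relative, were below the filter, with group means of at most 0.127 FPKM.

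These counts also moved with single libraries. In Complex 1 against control the count fell to 1 without control replicate 1, to 2 without radiation replicate 1, radiation replicate 3 or combination replicate 3, and to 0 without control replicate 2, control replicate 3, Complex 1 replicate 2 or Complex 1 replicate 3. In radiation against control it was 1 without control replicate 1, control replicate 2, radiation replicate 2 or radiation replicate 3, and 5 without Complex 1 replicate 3. In the combination against radiation it was 2 without radiation replicate 1 or radiation replicate 2 and 3 without radiation replicate 3. In the combination against Complex 1 it was 3 without Complex 1 replicate 1, Complex 1 replicate 2 or combination replicate 1, and 8 without Complex 1 replicate 3. In radiation against Complex 1, lower genes numbered 2 without Complex 1 replicate 3 and 3 without combination replicate 1 or 2, and 1 gene was higher without control replicate 1, Complex 1 replicate 1 or combination replicate 1, against 0 with all libraries. In the combination against control the count stayed between 7 and 10. Other fits moved the counts too. For Complex 1 against control the count was 0 with only the groups compared and 2 with the replicate number as a block. For radiation against Complex 1, DESeq2 called 3 lower and 2 higher, the replicate block 2 lower, and the unfiltered fit 4 lower and 2 higher. The unfiltered fit called 9 higher in the combination against Complex 1.

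Some regulators of the ligand genes rose in the combination, none of them by more than 1.21 on the log2 scale. All 17 listed NF-kB and C/EBP factors, their inhibitors and mRNA decay factors were tested. In the combination 8 rose against control, 2 against radiation and 6 against Complex 1, while 1 rose in radiation and none in Complex 1 against control. Cebpd, a C/EBP factor induced in acute inflammation, averaged 41.8 ± 8.71 FPKM in the combination, 20.9 ± 4.92 FPKM in radiation, 20.4 ± 2.17 FPKM in Complex 1 and 17.5 ± 2.57 FPKM in control tumours (combination against control, log2 1.21 ± 0.18, edgeR adjusted p = 0.00059). Nfkbiz, an atypical IkB protein that NF-kB induces, rose by 0.96 ± 0.14 (adjusted p = 0.00059) and Nfkbie, an NF-kB inhibitor, by 0.84 ± 0.13 (adjusted p = 0.00093) in the same comparison. Zc3h12a and Zfp36, which encode factors that degrade cytokine messages with stem-loops or AU-rich elements, rose by 1.08 ± 0.18 and 0.86 ± 0.17 (adjusted p = 0.0014 and 0.0036). Without control replicate 2 the counts against control were again 8, 1 and 0 in the combination, radiation and Complex 1. The NF-kB subunit genes Nfkb1, Nfkb2, Rel, Rela and Relb did not pass in any of the 6 pairwise comparisons.

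Some downstream components of the receptor rose in tumours of mice given radiation, with and without the compound. Of 18 tested signalling genes, 11 rose in the combination, 8 in radiation and 1 in Complex 1 against control, and in the combination 6 rose against Complex 1 and none against radiation. Arrb2, which encodes an arrestin that binds the activated receptor, averaged 31.9 ± 0.513 FPKM in the combination, 26.2 ± 1.61 FPKM in radiation, 26.7 ± 1.84 FPKM in Complex 1 and 19.7 ± 1.16 FPKM in control tumours. It was the 1 gene of the list that rose in Complex 1 (log2 0.41 ± 0.07, edgeR adjusted p = 0.016). The Src family kinase genes Lyn and Fgr rose by 0.76 ± 0.10 and 1.42 ± 0.20 in the combination against control (adjusted p = 0.00025 and 0.00042), and Gng2 by 0.73 ± 0.13 in radiation against control (adjusted p = 0.0040). Without control replicate 2 the counts against control were 11 in the combination, 6 in radiation and 0 in Complex 1, with an adjusted p of 0.095 for Arrb2 in Complex 1. Most of these genes are expressed by macrophages as well as neutrophils. Gnai3 was not analysed here.

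The other ELR ligands, the further ligand Mif and the receptor Cxcr1 gave no call. Ppbp, an ELR chemokine gene of platelets, averaged 1.46 ± 0.453 FPKM in the combination, 0.613 ± 0.248 FPKM in radiation, 0.943 ± 0.371 FPKM in Complex 1 and 0.980 ± 0.363 FPKM in control tumours. Mif, a cytokine that also binds CXCR2, averaged 376 ± 23.4 FPKM in the combination, 363 ± 50.6 FPKM in radiation, 460 ± 70.1 FPKM in Complex 1 and 459 ± 23.8 FPKM in control tumours. Neither passed in any of the 6 pairwise comparisons, the smallest adjusted p being 0.050 for Mif in radiation against control, with a log2 change of -0.37 ± 0.11 (edgeR). Cxcl15 was below the filter, with no library above 0.06 FPKM. Cxcr1, the other receptor of ELR chemokines, was also below it, with no library above 0.14 FPKM.

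Some CXC chemokines of other receptors rose in both groups given radiation. Of 8 tested, 6 rose in the combination, 5 in radiation and 0 in Complex 1 against control (5, 4 and 0 without control replicate 2), and in the combination 3 rose against Complex 1 and 0 against radiation. Cxcl10 and Cxcl11, ligands of CXCR3, a receptor of activated T cells, rose by 2.05 ± 0.30 and 2.09 ± 0.33 in the combination against control (edgeR, adjusted p = 0.00054 and 0.00093). Cxcl12, the ligand of CXCR4, rose by 1.28 ± 0.22 in that comparison (adjusted p = 0.0015). Cxcl10 was the 1 gene of the list that differed between radiation and Complex 1, higher in radiation by 1.02 ± 0.28 (adjusted p = 0.040). Of 3 tested other receptors, the scavenger receptor gene Ackr3 rose by 0.32 ± 0.10 in the combination against control (adjusted p = 0.032) and by 0.43 ± 0.10 against Complex 1 (adjusted p = 0.014), and Cxcr4 and Cxcr6 did not pass.

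Genes around the ligands were set beside them. Within 500 kb of the start of Cxcl1 the table lists 29 entries, of which 11 were tested and 7 are not members. None of these 7 rose in any of the 6 pairwise comparisons. Areg, which encodes amphiregulin, fell by 0.97 on the log2 scale in the combination against control (SE 0.32, edgeR adjusted p = 0.046, and 0.074 without control replicate 2), and Albfm1 was lower in radiation than in Complex 1 by 0.52 (log2 -0.52 ± 0.15, adjusted p = 0.046). Ppbp and Pf4, a platelet chemokine gene, lie between Cxcl5 and Cxcl3, and their log2 changes in the combination against control were 0.51 ± 0.39 (adjusted p = 0.39) and 0.37 ± 0.37 (adjusted p = 0.52).

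**Figure D5:**
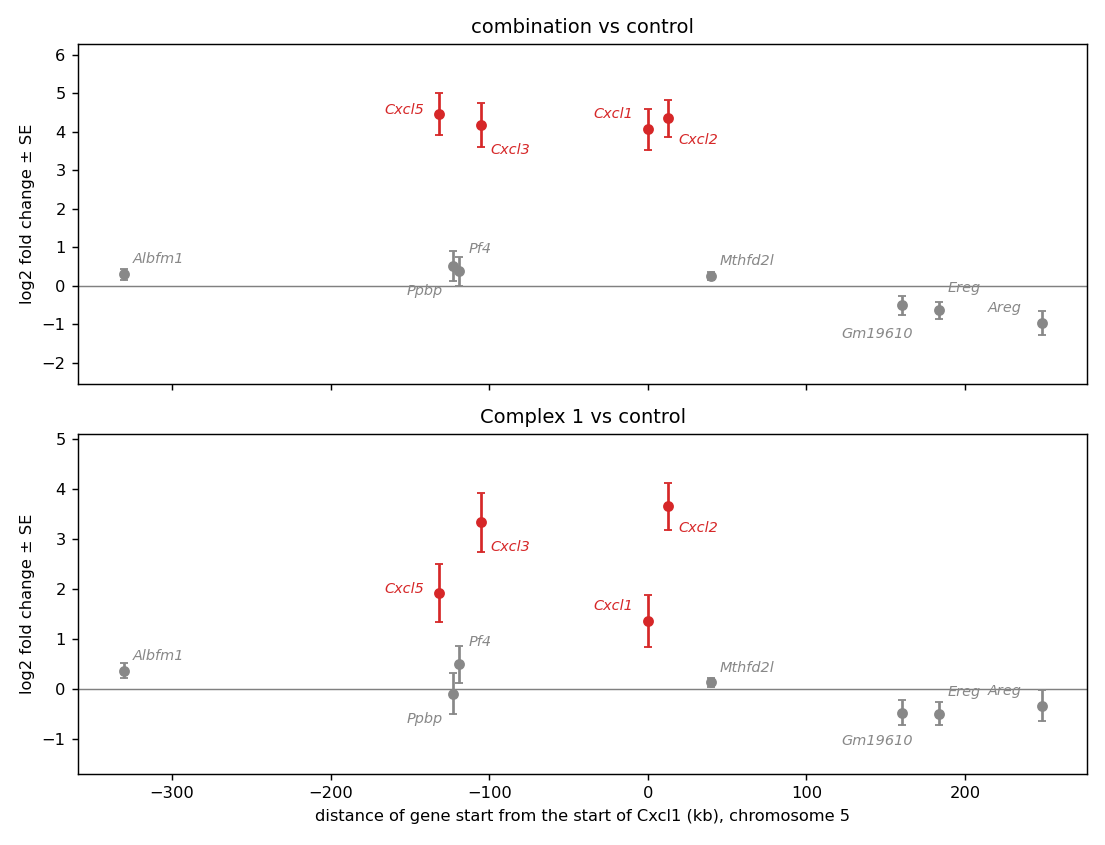
Log2 fold change ± SE (edgeR) of the tested genes around Cxcl1 against the distance of their starts from that of Cxcl1 in kb, for the combination (top) and Complex 1 (bottom) against control. The 4 ligands (red) stand above the 7 other genes (grey) in both panels.

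Markers of other cell types were measured beside the members. Of 10 macrophage markers, 7 rose in the combination, 7 in radiation and 1 in Complex 1 against control, 5 in the combination against Complex 1, 4 in radiation against Complex 1, and 0 in the combination against radiation. Without control replicate 2 the counts against control were 7, 7 and 0. Their summed levels were 2104 to 2236 FPKM in the combination, 2093 to 2272 FPKM in radiation, 1403 to 1547 FPKM in Complex 1 and 1002 to 1192 FPKM in control libraries, so the combination and radiation overlapped where all 5 members differed. Of 7 fibroblast markers only Dcn passed, higher in the combination against control by 1.05 ± 0.13 (edgeR, adjusted p = 0.00020), against radiation by 0.73 ± 0.13 (adjusted p = 0.022) and against Complex 1 by 0.66 ± 0.13 (adjusted p = 0.0078). Fibroblast markers summed to 294 to 303 FPKM in the combination, 241 to 274 FPKM in radiation, 224 to 283 FPKM in Complex 1 and 206 to 233 FPKM in control libraries.

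The remaining lists held few calls. Of 4 tested endothelial markers Kdr was lower in radiation than in Complex 1 (log2 -0.73 ± 0.20, edgeR adjusted p = 0.039), and no other passed. Of 5 tested T cell markers Cd4 rose in the combination against control (log2 1.49 ± 0.40, adjusted p = 0.017, and 0.072 without control replicate 2). None of the 6 mast cell markers passed. Krt18, an epithelial marker, fell by 0.87 on the log2 scale in the combination against control (SE 0.27, adjusted p = 0.038, and 0.14 without control replicate 2). The 1 tested keratinocyte marker, Krt10, fell by 0.97 in the combination (SE 0.31, adjusted p = 0.038) and by 1.13 in radiation (SE 0.31, adjusted p = 0.030) against control. Krt5 and Krt14 stood at 1.34 and 2.47 FPKM in control replicate 3, and at most at 0.18 and 0.26 FPKM in the other 11 libraries. The part of these cell types in the members' levels was not tested.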

How the data were processed

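Total RNA of 12 CT26 tumour libraries was sequenced with an NEB kit, per the labels' protocols. The submitters' processing notes name build mm39, STAR 2.5.3a, HTSeq 2.0.1 and DESeq2. Neither the step each tool did nor the strand setting or any filter is stated there. The authors deposited raw counts per gene and library, and FPKM, which equal these counts divided by exonic length in kb and by the library total in M. Entries without a symbol (1492 of 55415) took up 0.0579% to 0.0706% of a library's counts. Floors cover counting error only (3 counts in a gene of 2 kb correspond to 0.0785 to 0.0961 FPKM), and the confidence intervals of log2 changes cover the spread between libraries.

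Groups were taken from the sample titles. The counts of 13668 genes with at least 1 FPKM in at least 3 of 12 libraries were scaled by TMM and fitted with a mean per group over all 12 libraries (edgeR 4.0.16 quasi-likelihood, R 4.3.3, Benjamini-Hochberg threshold 0.05). The SE of a log2 change is its size divided by the square root of the F statistic. Median-ratio scaling, library totals, DESeq2 1.42.0, no filter, only the groups compared, a replicate block and leaving out each library were the alternatives. edgeR's filterByExpr, the coding length, the list counts under each alternative and all lists without control replicate 2 were added after seeing the data. No replicates were counted as duplicates: within groups, the chi-square of counts divided by its degrees of freedom was 5.25 or more. The fit was also run on simulated counts with known changes, drawn with its own estimates of spread. That run checks the code, and cannot show how calls depend on single libraries.

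The members, lists and motifs were chosen with earlier results of these data known. The named genes were all members in every comparison, the 5 genes most like each member by the RMS difference of centred log2 CPM (TMM, prior count 2), and up to 3 passing genes with the smallest p per list and comparison. Other genes named from the lists (the receptors and subunits that did not pass, and those given for their low level or role) were chosen after their values were seen, as were the neighbouring genes. Sequence sharing and coding lengths were computed from GENCODE M21 (GRCm38), and promoter motifs on both strands from RefSeq (GRCm38.p6). A gene of the neutrophil list is counted there but not reported here by name.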

Additional observations from a re-analysis of the deposited data

How the results depend on the processing

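The direction of every member was the same as reported in the combination against control, the combination against radiation, the combination against Complex 1, Complex 1 against control and radiation against Complex 1, under every alternative run. Small changes that did not pass turned: Cxcl2 in radiation against control was -0.15 and Cxcl3 -0.39 without radiation replicate 3 (0.81 and 0.82 without radiation replicate 2). The interaction of Cxcl2 was -0.11 without Complex 1 replicate 1, -0.12 without radiation replicate 2 and -0.06 without combination replicate 1, and that of Cxcl3 was -0.30 without combination replicate 1. Without radiation replicate 3 these were highest, at 0.84 and 1.22.

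Leaving out 1 library, members that passed numbered 0 to 3 in Complex 1 against control, 2 to 5 in the combination against radiation, 2 to 3 in the combination against Complex 1 and 2 to 3 in radiation against Complex 1, and stayed at 5 in the combination against control and 0 in radiation against control and the interaction. All genes that passed numbered 4 (without control replicate 2) to 236 (without Complex 1 replicate 1) in Complex 1 against control, beside 111 with all libraries. They numbered 25 to 100 in the combination against radiation (89 with all), 582 to 1884 against Complex 1 (1364), 2076 to 3176 against control (2992), 398 to 1440 in radiation against Complex 1 (1264), 865 to 2014 in radiation against control (1810) and 0 in the interaction.

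DESeq2 called 326 genes in Complex 1 against control, 185 in the combination against radiation and 6 in the interaction. With only the groups compared, 45 passed in Complex 1 against control and 632 in radiation against Complex 1. With no filter, all 5 members passed in Complex 1 against control, the combination against Complex 1 and radiation against Complex 1, and 2 in radiation against control and the interaction. All genes then numbered 803, 2285, 2107 and, in the combination against radiation and the interaction, 529 and 163. In that fit the 31727 genes gave an infinite prior df (5.07 with the FPKM filter), so it took no account of differences in spread between genes. The 2 members that this fit called in radiation against control were Cxcl1 and Cxcl5, with log2 changes of 0.74 and 1.09. The share of all genes it called there is not given, and was 13.2% of tested genes with the FPKM filter. With filterByExpr (16227 genes, prior df 5.55) the members that passed were as reported.

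The labels do not say that replicate numbers pair samples. Same-numbered libraries correlated at -0.20 to 0.16 in their deviations from group means, 4 of 18 pairs were over 0.1, and 4 of 12 libraries correlated best with their own number. With the replicate number as a block, 87 genes passed in Complex 1 against control and 3072 in the combination against control, and members that passed stayed at 3, 0, 5, 5, 3, 3 and 0 in Complex 1, radiation and the combination against control, the combination against radiation and against Complex 1, radiation against Complex 1, and the interaction. Depth limits Cxcr2 and Cxcl3, which had 5 to 48 counts in radiation and control libraries.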
